A study of Mus musculus with 9 samples.

Results

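The 42 genes described here encode hnRNPs, the abundant proteins that coat nascent transcripts, and other regulators of pre-mRNA splicing. They were chosen by gene name, with the serine/arginine-rich splicing factors and the CELF and MBNL families left out. The targets of the siRNAs are therefore not among them. Earlier results of these data were known when the choice was made. Of 1195555 probe sets on the array, 942 carried a member's symbol or its older symbol as their only gene symbol, and 39 of the 42 members were among the 12646 genes tested. RNA came from C2C12, an established mouse myoblast line that is widely used as a cell culture model of muscle precursors. The cells of 3 groups were transfected with Cugbp1 siRNA (Cugbp1 is the older name of Celf1), Mbnl1 siRNA or control siRNA, and RNA was taken 48 h later, with 3 exon arrays per group. All groups are the same line with no other treatment named, and every group received an siRNA. Whether an siRNA was a single sequence or a pool is not given in the labels, and neither is whether the arrays of a group represent separate cultures. The spread behind each p-value is that between arrays and could be purely technical.

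Splicing regulators bind short motifs in pre-mRNA and help or hinder the spliceosome at nearby splice sites, so that the set of regulators in a cell shapes which exons its mRNAs contain. Many of them also act on their own transcripts and on those of their relatives, through alternative exons that send part of the mRNA to decay. CELF1 and MBNL1 belong to the same regulatory layer, and in muscle both are disturbed in myotonic dystrophy. Among the genes described here, hnRNPs and PTBP1 are abundant in proliferating cells, whereas RBFOX1, RBM20 and RBM24 are known for their roles in heart and skeletal muscle.

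Celf1 stood at 36.4% of its control level after Cugbp1 siRNA and Mbnl1 at 39.3% of its control level after Mbnl1 siRNA, both on means of log2 values. The median intensity of an array was 42.3 to 42.8 after Cugbp1 siRNA and 42.5 to 42.9 after Mbnl1 siRNA, against 43.6 to 43.8 in control. All 9 myoblast markers were tested, among them Myod1, Myf5 and Des, with 161 of their 173 probe sets above the filter on weak signals. The marker lists of other cell types (haematopoietic, endothelial, epithelial, neural) had 78 of 386 probe sets above it. A level below is a log2 intensity, and a change is a difference between the means of such levels. Levels of different genes were not set against each other, because probe sets differ in how strongly they bind. The threshold for calling a gene was an adjusted p of 0.05 (limma, Benjamini-Hochberg over all 12646 genes), and the words rose and fell are used of called genes only.

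Promoters are shown for 3 members whose levels moved on every array of a siRNA group relative to control, Tia1 and Tardbp upwards and Nova2 downwards, so that the regulatory sequence can be read beside the values below, and these genes were chosen after their values were seen. Each is the 300 bases that RefSeq gives around a transcript start, most of them upstream of it, in GRCm38.p6, at chr6:86403969-86404268 on the plus strand, chr4:148626947-148627246 on the minus strand and chr7:18925638-18925937 on the plus strand. Capitals mark a GC box, GGGCGG on either strand.
Tia1: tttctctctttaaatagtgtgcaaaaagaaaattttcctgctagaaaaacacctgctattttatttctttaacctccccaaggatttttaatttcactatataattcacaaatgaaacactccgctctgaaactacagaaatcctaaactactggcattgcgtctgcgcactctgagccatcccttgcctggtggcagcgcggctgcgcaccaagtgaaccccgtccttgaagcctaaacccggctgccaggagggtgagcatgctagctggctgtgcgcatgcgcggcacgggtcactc
Tardbp: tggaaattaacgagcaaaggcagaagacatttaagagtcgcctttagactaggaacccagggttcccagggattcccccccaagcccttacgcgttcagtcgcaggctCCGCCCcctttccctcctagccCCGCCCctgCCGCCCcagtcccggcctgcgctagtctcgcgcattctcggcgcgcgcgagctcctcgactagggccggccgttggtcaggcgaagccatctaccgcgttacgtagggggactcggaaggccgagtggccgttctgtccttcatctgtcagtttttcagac
Nova2: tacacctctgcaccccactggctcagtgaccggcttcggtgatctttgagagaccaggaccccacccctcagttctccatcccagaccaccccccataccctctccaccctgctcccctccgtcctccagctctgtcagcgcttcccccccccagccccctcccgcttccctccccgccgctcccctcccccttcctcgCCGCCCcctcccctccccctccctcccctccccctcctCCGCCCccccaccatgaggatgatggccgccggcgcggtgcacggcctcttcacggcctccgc
The Tardbp window holds 3 GC boxes and the Nova2 window 2, whereas the Tia1 window holds none. Neither the CCAAT box (CCAAT) nor the TATA box (TATAAA) was found on either strand in the 3 windows, and no matches overlapped each other. Over the 48 RefSeq promoters of the 33 members with an entry, 58.3% held a GC box, beside 35.7% of all 32851 promoters of the same length. A CCAAT box was in 47.9% of the members' promoters and 37.4% of all, and a TATA box in 10.4% and 13.6%. These matches describe letters in a window and say nothing about which factors bind there.

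Most changes of the splicing regulators were small and upward. After Cugbp1 siRNA, 17 of the 39 tested members rose and 2 fell, with a median log2 change of 0.14 over the members, beside 0.054 over all genes. Of all genes tested, 26% rose and 12.7% fell in that comparison (38.7% called in all), so the members' share of rises was 43.6% and their share of falls 5.13%. After Mbnl1 siRNA, 17 members rose and 3 fell, with a median of 0.11 beside 0.041 over all genes, where 26.9% rose and 14.6% fell (41.5% called in all). Without the filter on weak probe sets the median of all genes was 0.012 after Cugbp1 siRNA and -0.0010 after Mbnl1 siRNA. That of the members was then 0.15 and 0.14. Members also held more kept probe sets, 723 over 39 genes, beside 158713 over the 11374 genes with at least 4. They were not matched to genes of like signal or number of probe sets, and the part of either in their shares was not tested. Both sets of siRNA arrays were set against 1 set of 3 control arrays. Their values are therefore given side by side, and likeness between them is not a result. In RNA from whole cultures, a change in the share of cells that express a gene and a change in the RNA per cell cannot be told apart.

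**Figure D1:**
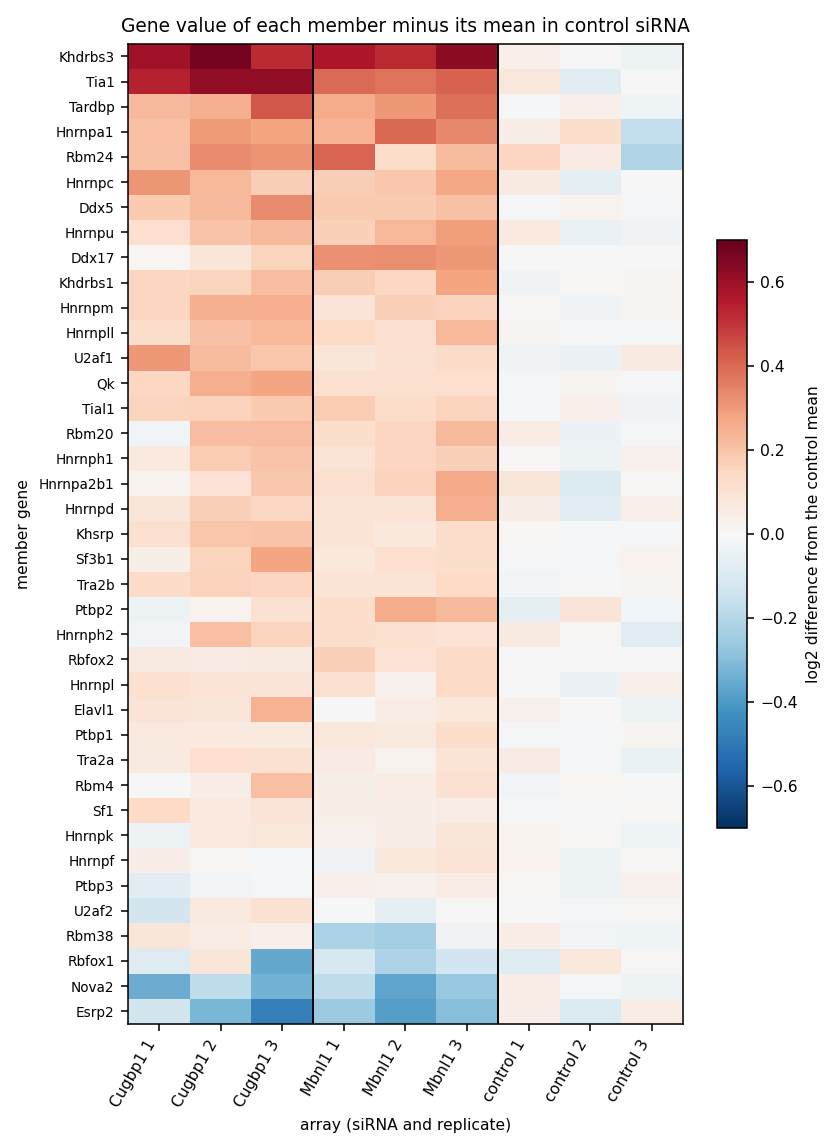
Each cell is the gene value (log2 intensity) of a tested member on 1 array minus its mean over the 3 control arrays, with red above and blue below control; rows are the 39 tested members ordered by their mean change and columns are the 9 arrays. Khdrbs3 and Tia1 were above control on all 6 siRNA arrays by the widest margins, and Nova2 and Esrp2 below control on all 6.

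The map of members by array shows where each siRNA array stood. The median member lay 0.086, 0.16 and 0.19 above its control mean on the Cugbp1 siRNA arrays and 0.096, 0.11 and 0.14 above it on the Mbnl1 siRNA arrays, while the control arrays themselves lay between -0.0088 and 0.0077. All 3 arrays lay above all 3 controls for 26 members after Cugbp1 siRNA and below them for 2, beside 32.9% and 15.9% of all genes (48.8% not overlapping in all). After Mbnl1 siRNA the counts were 29 and 3, beside 37.3% and 20.3% of all genes (57.5% not overlapping in all).

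**Figure D2:**
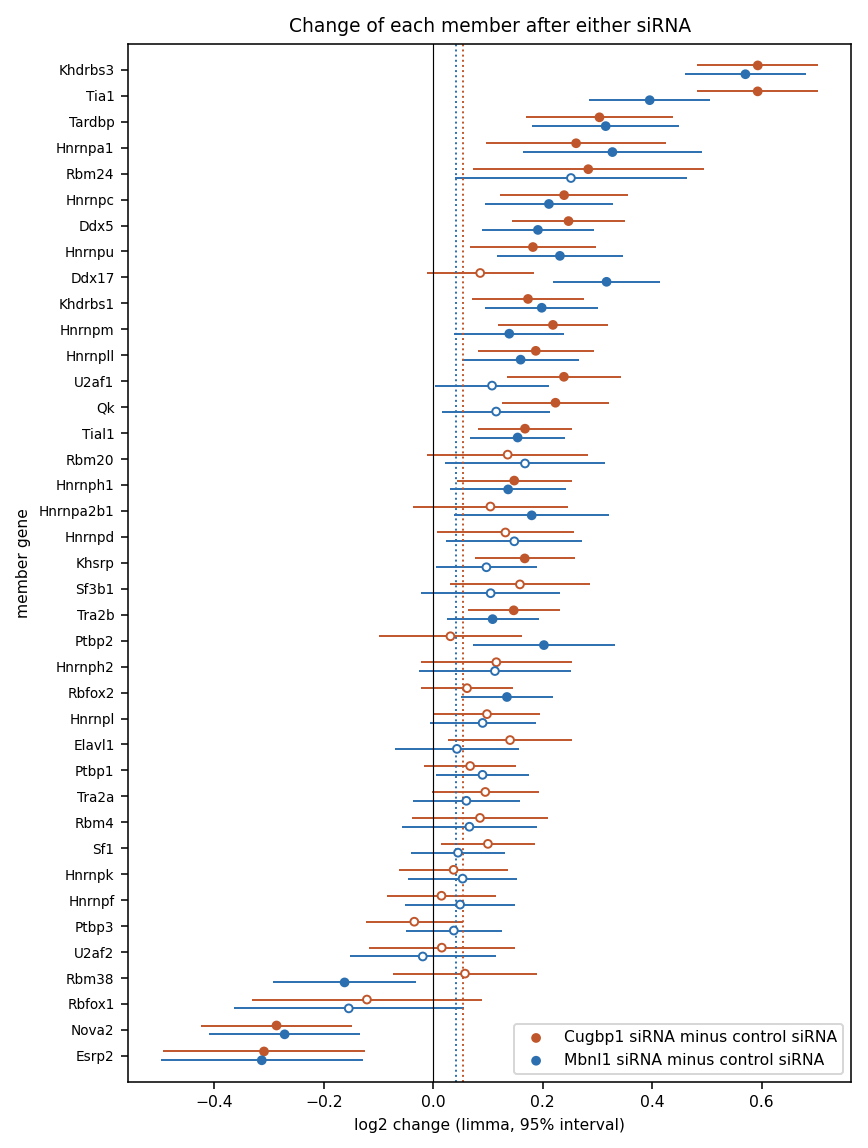
Log2 change of each tested member after Cugbp1 siRNA (orange) and Mbnl1 siRNA (blue) against control siRNA, with 95% intervals from limma; filled points passed the test, and dotted lines mark the median of all genes in each comparison. Most points lie right of both dotted lines, and only Nova2, Esrp2 and, after Mbnl1 siRNA, Rbm38 passed the test left of 0.

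The number of members called depends on how the arrays are scaled to each other. With each array centred on the median of its kept probe sets with 1 gene symbol, a scaling added after the data were seen, 5 members rose and 3 fell after Cugbp1 siRNA, and 4 rose and 3 fell after Mbnl1 siRNA. The rises were those of Khdrbs3, Tia1 and Tardbp in both comparisons, Qk and U2af1 after Cugbp1 siRNA and Ddx17 after Mbnl1 siRNA, and the falls those of Nova2 and Esrp2 in both, Ptbp3 after Cugbp1 siRNA and Rbm38 after Mbnl1 siRNA. Every other rise of a member ended as a call under this scaling. Among all genes the balance turned under that scaling, with 10.8% higher and 25.4% lower after Cugbp1 siRNA (36.2% in all) and 13.6% higher and 31% lower after Mbnl1 siRNA (44.6% in all). It moved the median of all genes by -0.094 after Cugbp1 siRNA and by -0.10 after Mbnl1 siRNA. Relative to that median the members kept their place. Centring nearly fixes this in advance, because it shifts all genes on an array by the same amount. The members' median stood 0.077 above that of all genes after Cugbp1 siRNA and 0.074 above it after Mbnl1 siRNA, beside 0.082 and 0.074 with the arrays as deposited. Over 7 scalings, 30 to 33 of the 39 members lay above the median of all genes after Cugbp1 siRNA and 33 to 34 after Mbnl1 siRNA. Under the centrings these counts carry the same limit.

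**Figure D3:**
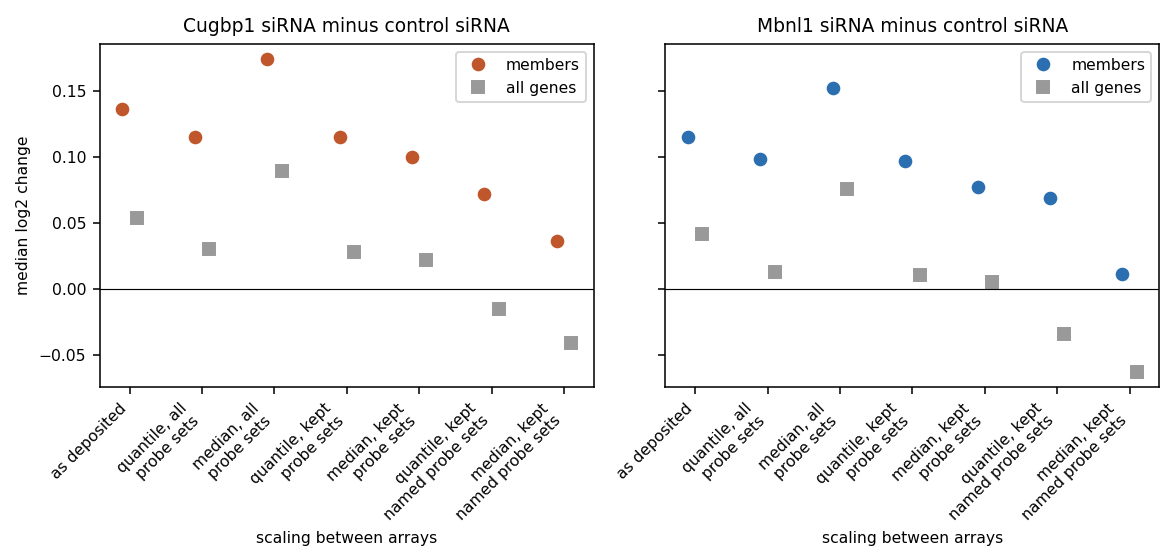
Median log2 change of the 39 tested members (circles) and of all 12646 genes (squares) under 7 scalings between arrays, for Cugbp1 siRNA (left panel) and Mbnl1 siRNA (right panel) against control; a kept named probe set is one above the filter with 1 gene symbol. The median of all genes changes sign under the last 2 scalings in both panels, whereas the members' median stays above 0 and above that of all genes in every one. Centring on a median shifts both alike, so their order is nearly fixed under it.

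Centring each array on the median of all its probe sets moved the counts of calls the other way, to 24 members higher and 2 lower after Cugbp1 siRNA and 25 higher and 2 lower after Mbnl1 siRNA. Of all genes, 34.8% were then higher and 9.73% lower after Cugbp1 siRNA (44.5% in all), and 33.5% higher and 11.3% lower after Mbnl1 siRNA (44.8% in all). The calls of 6 members after Cugbp1 siRNA were made in each of the 21 alternative settings run, including those that left out 1 array: Khdrbs3, Tia1, Tardbp, Qk, U2af1 and Nova2. After Mbnl1 siRNA this held for Khdrbs3, Tia1, Tardbp and Ddx17. The share of all genes called in every setting was not counted, so these numbers have no background beside them. Calls that ended when 1 array was left out are named with their values in the paragraphs below. Losses under the other settings are given there only in part. After Mbnl1 siRNA the call of Hnrnpa2b1 was made in 9 of the 21 settings, that of Hnrnpm in 10 and that of Hnrnpll in 13. The call of Hnrnpa1 after Cugbp1 siRNA was made in 15.

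The KHDRBS proteins, which bind RNA through a KH domain and regulate alternative exons and transcript ends, held the member with the largest rise over both comparisons. Khdrbs3, which encodes SLM2, also known as T-STAR, stood at 8.83, 8.91 and 8.77 after Cugbp1 siRNA and 8.81, 8.77 and 8.87 after Mbnl1 siRNA, against 8.28, 8.25 and 8.21 in control. All 6 siRNA arrays were above every control array, with a gap far wider than the spread within any group. Its log2 change was 0.59 (SE 0.050, limma adjusted p = 9.64e-05) after Cugbp1 siRNA and 0.57 (SE 0.050, limma adjusted p = 4.31e-05) after Mbnl1 siRNA, a 1.51-fold and a 1.49-fold rise. The interval of the difference between the siRNAs was -0.088 to 0.13. Khdrbs1, which encodes SAM68, stood at 10.42, 10.43 and 10.49 after Cugbp1 siRNA and 10.44, 10.42 and 10.55 after Mbnl1 siRNA, against 10.24, 10.28 and 10.29 in control. Its siRNA arrays also lay above all controls, and it rose by 0.17 (SE 0.046, limma adjusted p = 0.016) after Cugbp1 siRNA and 0.20 (SE 0.046, limma adjusted p = 0.0074) after Mbnl1 siRNA. The first of these calls ended without Cugbp1 siRNA replicate 3 or without control replicate 1 (limma adjusted p = 0.0556 and 0.0514). Under centring on the kept probe sets with 1 symbol neither Khdrbs1 change passed the test (limma adjusted p = 0.158 and 0.157). Qk encodes quaking, a related KH-domain protein that regulates splicing in muscle and in myelinating glia. Its levels were 10.86, 10.97 and 10.99 after Cugbp1 siRNA and 10.83, 10.83 and 10.83 after Mbnl1 siRNA, against 10.71, 10.73 and 10.71 in control. The Cugbp1 siRNA arrays were the highest, the Mbnl1 siRNA arrays lay between them and the controls, and no groups overlapped. Qk rose by 0.22 (SE 0.044, limma adjusted p = 0.00414) after Cugbp1 siRNA, whereas its change after Mbnl1 siRNA was 0.11 (SE 0.044, limma adjusted p = 0.0592).

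TIA1 and TIAL1 bind U-rich sequence next to weak 5′ splice sites, favour use of those sites, and repress translation in stress granules. Tia1 stood at 8.91, 8.995 and 8.999 after Cugbp1 siRNA and 8.77, 8.76 and 8.79 after Mbnl1 siRNA, against 8.45, 8.29 and 8.38 in control. The groups did not overlap, with Cugbp1 siRNA highest and control lowest. It rose by 0.59 (SE 0.050, limma adjusted p = 9.64e-05) after Cugbp1 siRNA and 0.40 (SE 0.050, limma adjusted p = 3.19e-04) after Mbnl1 siRNA, or 1.51-fold and 1.32-fold. Tial1 stood at 8.76, 8.76 and 8.78 after Cugbp1 siRNA and 8.77, 8.73 and 8.75 after Mbnl1 siRNA, against 8.59, 8.63 and 8.58 in control. The siRNA arrays overlapped each other and lay above all controls, and Tial1 rose by 0.17 (SE 0.039, limma adjusted p = 0.00838) after Cugbp1 siRNA and 0.15 (SE 0.039, limma adjusted p = 0.0104) after Mbnl1 siRNA. Both Tial1 calls ended under centring on the kept probe sets with 1 symbol (limma adjusted p = 0.179 and 0.25). Elavl1, which encodes HuR, a U-rich element binder that stabilises mRNAs, missed the threshold after Cugbp1 siRNA at 0.14 (SE 0.051, limma adjusted p = 0.0524) and after Mbnl1 siRNA at 0.043 (SE 0.051, limma adjusted p = 0.52). Tardbp encodes TDP-43, which binds GU-rich RNA and keeps cryptic exons out of mRNAs, and limits its own mRNA. Its levels were 8.54, 8.56 and 8.74 after Cugbp1 siRNA and 8.57, 8.61 and 8.69 after Mbnl1 siRNA, against 8.30, 8.35 and 8.28 in control. The siRNA groups overlapped each other above every control array, and Tardbp rose by 0.30 (SE 0.060, limma adjusted p = 0.00422) after Cugbp1 siRNA and 0.32 (SE 0.060, limma adjusted p = 0.00275) after Mbnl1 siRNA. Khsrp encodes KSRP, a KH-domain protein that acts in splicing and in decay of AU-rich mRNAs. Its levels were 10.17, 10.25 and 10.26 after Cugbp1 siRNA and 10.16, 10.14 and 10.18 after Mbnl1 siRNA, against 10.08, 10.05 and 10.05 in control. The siRNA arrays were all above control, yet Khsrp passed the test in 1 comparison, with 0.17 (SE 0.041, limma adjusted p = 0.0111) after Cugbp1 siRNA and 0.097 (SE 0.041, limma adjusted p = 0.0823) after Mbnl1 siRNA. That call ended under centring on the kept probe sets with 1 symbol (limma adjusted p = 0.388).

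**Figure D4:**
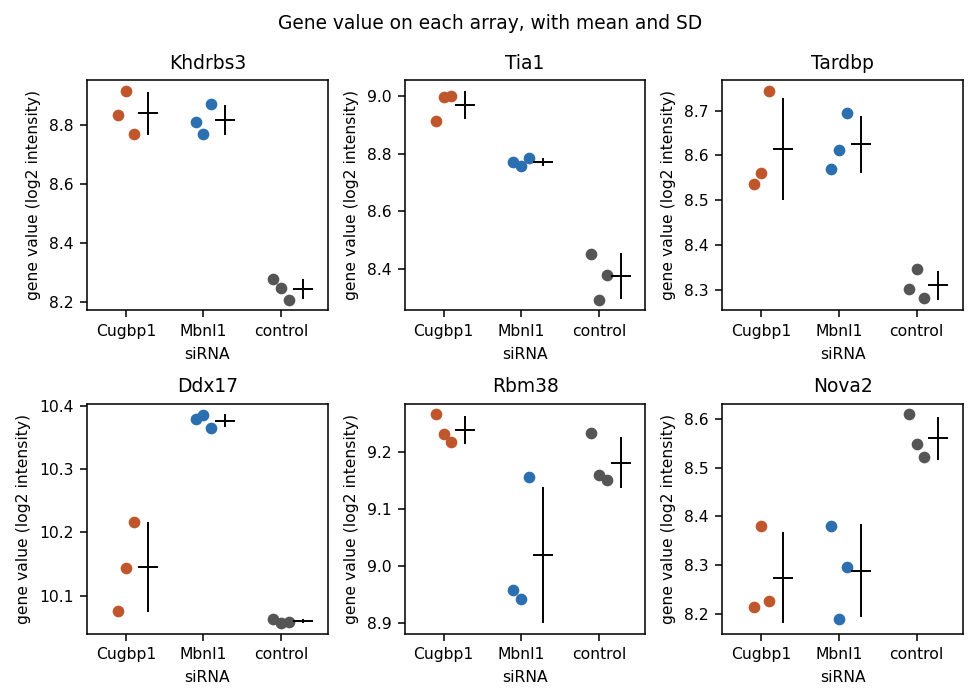
Gene value (log2 intensity, y axis, a separate scale in each panel) of 6 members on each of the 9 arrays, by siRNA; points are arrays, and the cross beside them is the mean with 1 SD of the 3 arrays. Khdrbs3, Tia1 and Tardbp lie above control on all 6 siRNA arrays, Nova2 lies below it, Ddx17 is highest after Mbnl1 siRNA, and for Rbm38 1 Mbnl1 siRNA array lies at the level of the controls.

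Among the hnRNPs, which package transcripts and bind splicing silencers or enhancers, Hnrnpa1, Hnrnpc, Hnrnpm, Hnrnpu, Hnrnph1 and Hnrnpll rose in both comparisons. Hnrnpa1 encodes a repressor of many exons and stood at 10.12, 10.21 and 10.19 after Cugbp1 siRNA and 10.16, 10.32 and 10.25 after Mbnl1 siRNA, against 9.96, 10.04 and 9.74 in control. All siRNA arrays lay above the controls, which themselves spread over 0.29 on the log2 scale between the lowest and the highest. Hnrnpa1 rose by 0.26 (SE 0.074, limma adjusted p = 0.0199) after Cugbp1 siRNA and 0.33 (SE 0.074, limma adjusted p = 0.00613) after Mbnl1 siRNA. It rests on 7 probe sets and has many processed pseudogenes, and cross-hybridisation was not assessed, so its value is uncertain. Its call after Cugbp1 siRNA ended without Cugbp1 siRNA replicate 2 or 3 or without control replicate 3 (limma adjusted p = 0.0587, 0.0554 and 0.0557). Under centring on the kept probe sets with 1 symbol the Hnrnpa1 changes were 0.15 (limma adjusted p = 0.183) after Cugbp1 siRNA and 0.20 (limma adjusted p = 0.0718) after Mbnl1 siRNA, so both calls ended. Hnrnpa2b1, a close relative of Hnrnpa1, stood at 10.56, 10.63 and 10.72 after Cugbp1 siRNA and 10.64, 10.69 and 10.80 after Mbnl1 siRNA, against 10.61, 10.44 and 10.54 in control. The Cugbp1 siRNA arrays overlapped the controls, while the Mbnl1 siRNA arrays were all above them. Hnrnpa2b1 rose by 0.18 (SE 0.064, limma adjusted p = 0.0438) after Mbnl1 siRNA, and its change after Cugbp1 siRNA was 0.10 (SE 0.064, limma adjusted p = 0.21). The rise did not pass the test without Mbnl1 siRNA replicate 2 or 3, control replicate 2 or 3, or Cugbp1 siRNA replicate 2 (limma adjusted p from 0.0582 to 0.158), nor under that centring, at 0.068 (limma adjusted p = 0.326).

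Hnrnpc, a U-tract binder that shields transcripts from cryptic exons, stood at 9.83, 9.76 and 9.69 after Cugbp1 siRNA and 9.69, 9.71 and 9.79 after Mbnl1 siRNA, against 9.58, 9.45 and 9.53 in control. It was above control on every siRNA array and rose by 0.24 (SE 0.053, limma adjusted p = 0.00686) after Cugbp1 siRNA and 0.21 (SE 0.053, limma adjusted p = 0.0101) after Mbnl1 siRNA. Both calls ended under centring on the kept probe sets with 1 symbol, at 0.15 (limma adjusted p = 0.0698) after Cugbp1 siRNA and 0.12 (limma adjusted p = 0.122) after Mbnl1 siRNA. Hnrnpu, a nuclear matrix protein that binds RNA and chromatin, stood at 10.91, 10.99 and 11.01 after Cugbp1 siRNA and 10.96, 11.02 and 11.08 after Mbnl1 siRNA, against 10.86, 10.74 and 10.77 in control. The siRNA groups overlapped each other and not the controls, and Hnrnpu rose by 0.18 (SE 0.052, limma adjusted p = 0.0203) after Cugbp1 siRNA and 0.23 (SE 0.052, limma adjusted p = 0.0059) after Mbnl1 siRNA. The rise after Cugbp1 siRNA missed the threshold without Cugbp1 siRNA replicate 2 or 3 or control replicate 2 or 3 (limma adjusted p from 0.0602 to 0.0673). Under the same centring both Hnrnpu calls ended, at 0.073 (limma adjusted p = 0.229) after Cugbp1 siRNA and 0.12 (limma adjusted p = 0.0595) after Mbnl1 siRNA. Hnrnpm, which binds GU-rich silencers, stood at 10.29, 10.39 and 10.39 after Cugbp1 siRNA and 10.23, 10.30 and 10.30 after Mbnl1 siRNA, against 10.14, 10.11 and 10.15 in control. Every siRNA array was above every control array. It rose by 0.22 (SE 0.045, limma adjusted p = 0.00505) after Cugbp1 siRNA and 0.14 (SE 0.045, limma adjusted p = 0.032) after Mbnl1 siRNA, and the second call ended without Mbnl1 siRNA replicate 2 or 3 or without any 1 of the control arrays (limma adjusted p from 0.0585 to 0.102). The centring ended both, at 0.11 (limma adjusted p = 0.0511) after Cugbp1 siRNA and 0.023 (limma adjusted p = 0.656) after Mbnl1 siRNA.

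Members of the F/H and L classes gave a mixed picture. Hnrnph1, which binds G-runs, stood at 10.38, 10.49 and 10.51 after Cugbp1 siRNA and 10.41, 10.46 and 10.48 after Mbnl1 siRNA, against 10.32, 10.27 and 10.34 in control. The siRNA arrays were above all controls by a narrow margin, and it rose by 0.15 (SE 0.048, limma adjusted p = 0.0329) after Cugbp1 siRNA and 0.14 (SE 0.048, limma adjusted p = 0.041) after Mbnl1 siRNA. These were among the least stable calls, made in 9 of 21 alternative settings after Cugbp1 siRNA and in 7 of 21 after Mbnl1 siRNA. The first ended without Cugbp1 siRNA replicate 2 or 3 or any 1 control array (limma adjusted p from 0.054 to 0.105), and the second without Cugbp1 siRNA replicate 2, any 1 Mbnl1 siRNA array or any 1 control array (limma adjusted p from 0.053 to 0.125). Under centring on the kept probe sets with 1 symbol the changes were 0.036 (limma adjusted p = 0.486) after Cugbp1 siRNA and 0.023 (limma adjusted p = 0.649) after Mbnl1 siRNA. Hnrnpll, known from lymphocytes, where it represses exons of Ptprc, stood at 9.42, 9.50 and 9.53 after Cugbp1 siRNA and 9.43, 9.41 and 9.53 after Mbnl1 siRNA, against 9.32, 9.29 and 9.29 in control. Both siRNA groups lay above control and overlapped each other, and Hnrnpll rose by 0.19 (SE 0.048, limma adjusted p = 0.0128) after Cugbp1 siRNA and 0.16 (SE 0.048, limma adjusted p = 0.0229) after Mbnl1 siRNA. Its call after Mbnl1 siRNA ended without Mbnl1 siRNA replicate 3 or control replicate 2 or 3 (limma adjusted p = 0.0949, 0.0568 and 0.0622). The same centring ended both Hnrnpll calls, at 0.079 (limma adjusted p = 0.134) after Cugbp1 siRNA and 0.038 (limma adjusted p = 0.44) after Mbnl1 siRNA.

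The remaining hnRNPs did not pass the test in either comparison. Hnrnpd, which encodes the AU-rich element binder AUF1, gave 0.13 (SE 0.056, limma adjusted p = 0.0853) after Cugbp1 siRNA and 0.15 (SE 0.056, limma adjusted p = 0.0561) after Mbnl1 siRNA. Hnrnpl, a binder of CA repeats, gave 0.098 after Cugbp1 siRNA and 0.090 after Mbnl1 siRNA, and Hnrnph2, a close relative of Hnrnph1, gave 0.12 and 0.11 in the same order. Hnrnpk, a binder of C-rich RNA, gave 0.037 after Cugbp1 siRNA, with a 95% interval of -0.062 to 0.14, and 0.054 after Mbnl1 siRNA, with an interval of -0.046 to 0.15. For Hnrnpf, the F-class relative of Hnrnph1, the changes were 0.015 (95% interval -0.085 to 0.12) and 0.049 (95% interval -0.051 to 0.15). These intervals allow small changes of either sign.

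The PTB proteins repress exons through CU-rich tracts, and PTBP1 holds down PTBP2 in most cells by making its transcript skip an exon. Ptbp2, the form typical of neurons, stood at 8.83, 8.90 and 8.97 after Cugbp1 siRNA and 8.99, 9.13 and 9.10 after Mbnl1 siRNA, against 8.80, 8.96 and 8.85 in control. The Cugbp1 siRNA arrays overlapped control, and all Mbnl1 siRNA arrays were above both other groups. Ptbp2 rose by 0.20 (SE 0.058, limma adjusted p = 0.0195) after Mbnl1 siRNA and gave 0.031 (SE 0.058, limma adjusted p = 0.685) after Cugbp1 siRNA, while the difference between the siRNAs missed the threshold, at -0.17 (SE 0.058, limma adjusted p = 0.103). The rise ended without Mbnl1 siRNA replicate 2 or 3 or control replicate 1 or 3 (limma adjusted p from 0.0578 to 0.0702), and under centring on the kept probe sets with 1 symbol, at 0.090 (limma adjusted p = 0.188). Ptbp1 itself changed by 0.067 (SE 0.038, limma adjusted p = 0.179) after Cugbp1 siRNA and by 0.090 (SE 0.038, limma adjusted p = 0.0813) after Mbnl1 siRNA, on arrays that lay just above the controls in both groups. Ptbp3 gave -0.035 and 0.038 in the same order, neither past the test. Under that centring, the change of Ptbp3 after Cugbp1 siRNA was -0.15 and passed the test (limma adjusted p = 0.0117).

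Regulators known for restricted tissues included Nova2 and Esrp2, which fell after each siRNA. Nova2 encodes a neuronal KH-domain regulator that binds YCAY motifs and stood at 8.21, 8.38 and 8.23 after Cugbp1 siRNA and 8.38, 8.19 and 8.29 after Mbnl1 siRNA, against 8.61, 8.55 and 8.52 in control. Esrp2 encodes an epithelial splicing regulator and stood at 7.81, 7.61 and 7.46 after Cugbp1 siRNA and 7.68, 7.55 and 7.64 after Mbnl1 siRNA, against 7.98, 7.84 and 7.99 in control. For both genes every siRNA array lay below every control array, and the siRNA groups overlapped each other. Nova2 fell by 0.29 after Cugbp1 siRNA (SE 0.062, limma adjusted p = 0.00626) and by 0.27 after Mbnl1 siRNA (SE 0.062, limma adjusted p = 0.00657). Esrp2 fell by 0.31 in each comparison (SE 0.083, limma adjusted p = 0.0159 and 0.0131). The Cugbp1 siRNA call of Esrp2 ended without Cugbp1 siRNA replicate 3 or without control replicate 3 (limma adjusted p = 0.0505 and 0.0529). With no filter on weak probe sets both Esrp2 calls ended, at -0.22 (limma adjusted p = 0.0667) after Cugbp1 siRNA and -0.21 (limma adjusted p = 0.0703) after Mbnl1 siRNA. With the filter at the 50th percentile the Nova2 call after Mbnl1 siRNA ended, at -0.15 (limma adjusted p = 0.0803). The genes rest on 8 of 17 and 8 of 22 probe sets, the rest being too weak. Several markers of other cell types fell as well, and most of their probe sets, like those of Nova2 and Esrp2, were too weak for the filter. The median log2 level of all probe sets on the array was also lower, at 5.40 to 5.42 on the siRNA arrays against 5.45 in control. Of the 12 such markers tested, 8 fell after Cugbp1 siRNA and 6 after Mbnl1 siRNA (12.7% and 14.6% of all genes). The summed intensity of all 386 probe sets of the 18 listed markers, weak ones included, was 39179 to 42439 after Cugbp1 siRNA. It was 42130 to 42700 after Mbnl1 siRNA, against 45601 to 48369 in control. Whether the falls of Nova2, Esrp2 and these markers belong to weak signals in general was not tested, and they are not read as a change in such cells.

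Nova1, the relative of Nova2, and Esrp1, the relative of Esrp2, had no probe set above the filter and were not tested. The 8 probe sets of Nova1 had means over all arrays from 3.05 to 6.86, with a median of 4.40, and the 25 of Esrp1 from 2.12 to 6.61, with a median of 4.38, below the threshold of 7.0. Rbfox3, known as the neuronal marker NeuN, had no probe set with its symbol alone.

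The RBFOX proteins bind UGCAUG beside exons and drive muscle and neuronal exon programmes. Rbfox2, the widely expressed form, stood at 10.54, 10.54 and 10.54 after Cugbp1 siRNA and 10.65, 10.58 and 10.61 after Mbnl1 siRNA, against 10.48, 10.48 and 10.48 in control. The Mbnl1 siRNA arrays were highest and the groups did not overlap, although the gap of the Cugbp1 siRNA arrays to control was only 0.062. Rbfox2 rose by 0.13 (SE 0.038, limma adjusted p = 0.0175) after Mbnl1 siRNA and gave 0.062 (SE 0.038, limma adjusted p = 0.215) after Cugbp1 siRNA. The rise ended without Mbnl1 siRNA replicate 1 or 3 (limma adjusted p = 0.0679 and 0.0545). It also ended under 3 scalings, and under centring on the kept probe sets with 1 symbol the change was 0.019 (limma adjusted p = 0.71). Rbfox1, the form of muscle, heart and brain, rests on 4 of 31 probe sets and gave -0.12 (SE 0.094, limma adjusted p = 0.325) after Cugbp1 siRNA and -0.15 (SE 0.094, limma adjusted p = 0.211) after Mbnl1 siRNA.

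RBM24, RBM20 and RBM38 act on muscle transcripts, with RBM24 promoting muscle exons and RBM20 controlling titin isoforms. Rbm24 rests on 4 of 9 probe sets and stood at 8.10, 8.23 and 8.21 after Cugbp1 siRNA and 8.30, 8.02 and 8.11 after Mbnl1 siRNA, against 8.04, 7.95 and 7.69 in control. The Cugbp1 siRNA arrays were above all controls, whereas an Mbnl1 siRNA array lay within the range of the controls. Rbm24 rose by 0.28 (SE 0.095, limma adjusted p = 0.0388) after Cugbp1 siRNA, and a change of nearly the same size after Mbnl1 siRNA missed the threshold, at 0.25 (SE 0.095, limma adjusted p = 0.0561). The call ended without Cugbp1 siRNA replicate 2 or 3, control replicate 2 or 3, or Mbnl1 siRNA replicate 3 (limma adjusted p from 0.0523 to 0.126). It was made in 9 of 21 alternative settings, and with no filter on weak probe sets the change was 0.14 (limma adjusted p = 0.114). Rbm38, which encodes a regulator of mRNA stability and splicing in muscle and blood cells, stood at 9.27, 9.23 and 9.22 after Cugbp1 siRNA and 8.96, 8.94 and 9.16 after Mbnl1 siRNA, against 9.23, 9.16 and 9.15 in control. After Mbnl1 siRNA, 2 arrays were below all others and the remaining array was level with the controls. Rbm38 fell by 0.16 after Mbnl1 siRNA (SE 0.059, limma adjusted p = 0.0488) and gave 0.058 (SE 0.059, limma adjusted p = 0.453) after Cugbp1 siRNA. The fall passed the test in 10 of 21 alternative settings, and it ended without any 1 of the Cugbp1 siRNA or control arrays and without Mbnl1 siRNA replicate 1 or 2 (limma adjusted p from 0.0524 to 0.161). Rbm20 gave 0.14 (SE 0.066, limma adjusted p = 0.125) and 0.17 (SE 0.066, limma adjusted p = 0.065) after Cugbp1 and Mbnl1 siRNA. Rbm4, which antagonises PTB in muscle exons, gave 0.085 and 0.066 in the same order, neither past the test.

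The TRA2 proteins activate exons through GAA-rich enhancers. Tra2b stood at 9.57, 9.60 and 9.59 after Cugbp1 siRNA and 9.53, 9.53 and 9.58 after Mbnl1 siRNA, against 9.42, 9.44 and 9.46 in control. Its siRNA arrays were all above control, by small margins, and Tra2b rose by 0.15 (SE 0.038, limma adjusted p = 0.0132) after Cugbp1 siRNA and 0.11 (SE 0.038, limma adjusted p = 0.0419) after Mbnl1 siRNA. The call after Mbnl1 siRNA passed the test in 8 of 21 alternative settings, and ended without any 1 of the Mbnl1 siRNA or control arrays and without Cugbp1 siRNA replicate 2 (limma adjusted p from 0.0601 to 0.137). Both Tra2b calls ended under centring on the kept probe sets with 1 symbol, at 0.036 (limma adjusted p = 0.454) after Cugbp1 siRNA and 0.012 (limma adjusted p = 0.81) after Mbnl1 siRNA. The platform names these probe sets Sfrs10, an older symbol that RefSeq lists under more than 1 gene, and they were taken as Tra2b because the platform names the other gene separately. Tra2a gave 0.095 (SE 0.044, limma adjusted p = 0.108) after Cugbp1 siRNA and 0.061 (SE 0.044, limma adjusted p = 0.287) after Mbnl1 siRNA.

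SF1, U2AF and SF3B1 recognise the branch point, the polypyrimidine tract and the AG at the 3′ end of an intron in the early steps of spliceosome assembly. U2af1, the subunit that reads the AG, stood at 9.75, 9.67 and 9.64 after Cugbp1 siRNA and 9.54, 9.56 and 9.58 after Mbnl1 siRNA, against 9.43, 9.41 and 9.51 in control. The Cugbp1 siRNA arrays were highest and the controls lowest, with no overlap. U2af1 rose by 0.24 (SE 0.047, limma adjusted p = 0.00407) after Cugbp1 siRNA and gave 0.11 (SE 0.047, limma adjusted p = 0.0901) after Mbnl1 siRNA, and the difference between the siRNAs missed the threshold, at 0.13 (SE 0.047, limma adjusted p = 0.117). Its partner U2af2, which binds the polypyrimidine tract, gave 0.016 after Cugbp1 siRNA (95% interval -0.12 to 0.15) and -0.019 after Mbnl1 siRNA (95% interval -0.15 to 0.11). Sf3b1, which contacts the branch point in the U2 particle, gave 0.16 (SE 0.057, limma adjusted p = 0.0505) after Cugbp1 siRNA, at the edge of the threshold, and 0.10 (SE 0.057, limma adjusted p = 0.164) after Mbnl1 siRNA. Sf1, the first branch point binder, gave 0.10 (SE 0.039, limma adjusted p = 0.0629) and 0.045 (SE 0.039, limma adjusted p = 0.366) after Cugbp1 and Mbnl1 siRNA.

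DDX5 and DDX17 are paralogous RNA helicases that unwind structures at regulated splice sites and act as coactivators of MYOD. Ddx5 stood at 10.84, 10.88 and 10.98 after Cugbp1 siRNA and 10.84, 10.84 and 10.86 after Mbnl1 siRNA, against 10.64, 10.68 and 10.64 in control. It was above control on all siRNA arrays and rose by 0.25 (SE 0.046, limma adjusted p = 0.00319) after Cugbp1 siRNA and 0.19 (SE 0.046, limma adjusted p = 0.00855) after Mbnl1 siRNA. Both calls ended under centring on the kept probe sets with 1 symbol, at 0.12 (limma adjusted p = 0.0508) after Cugbp1 siRNA and 0.079 (limma adjusted p = 0.154) after Mbnl1 siRNA. Ddx17 stood at 10.08, 10.14 and 10.22 after Cugbp1 siRNA and 10.38, 10.38 and 10.36 after Mbnl1 siRNA, against 10.06, 10.06 and 10.06 in control. The Mbnl1 siRNA arrays stood apart above all others, and the Cugbp1 siRNA arrays were close to the controls without overlapping them. Ddx17 rose by 0.32 (SE 0.044, limma adjusted p = 5.54e-04) after Mbnl1 siRNA, a 1.25-fold rise, and gave 0.086 (SE 0.044, limma adjusted p = 0.145) after Cugbp1 siRNA.

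The siRNAs were compared directly to ask whether a regulator answered one more than the other. Of the 39 members, Rbm38 and Tia1 were higher after Cugbp1 siRNA and Ddx17 was lower, and 6 members had an unadjusted p under 0.05. Of all genes, 4.27% were higher and 5.07% lower in that comparison (9.34% called in all), so the members' count of 3 is near the background. The Ddx17 difference was -0.23 (SE 0.044, limma adjusted p = 0.00991) and was called in all 21 alternative settings. The Tia1 difference of 0.20 (SE 0.050, limma adjusted p = 0.0341) was called in 11 of 21, and ended without Cugbp1 siRNA replicate 2 or 3, any 1 Mbnl1 siRNA array or control replicate 3 (limma adjusted p from 0.0517 to 0.108). The Rbm38 difference of 0.22 (SE 0.059, limma adjusted p = 0.044) was called in 9 of 21, and ended without any 1 Cugbp1 siRNA or control array or Mbnl1 siRNA replicate 1 or 2 (limma adjusted p from 0.0573 to 0.155). For the members that passed the test after 1 siRNA alone, other than Ddx17 and Rbm38, a difference between the siRNAs was not shown.

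Exon arrays also show whether single probe sets departed from the rest of their gene, as happens where an exon or a transcript end is used more or less. For the test, the gene value of each array was subtracted from its probe set levels, over 723 probe sets of the 39 members. No coordinates were used, so a called probe set is not tied to a particular exon. After Cugbp1 siRNA 50 member probe sets were called, 27 below and 23 above their gene, which is 6.92% beside 5.11% of all 158713 probe sets tested, 3.01% below and 2.1% above. After Mbnl1 siRNA 108 were called, 53 below and 55 above, which is 14.9% beside 9.54% of all probe sets, 5.06% below and 4.48% above. The calls lay in 25 and 33 of the 39 genes, beside 43.6% and 61.4% of all 11374 genes tested for exon usage. Members held more tested probe sets per gene (723 over 39 genes, beside 158713 over 11374). A gene with more probe sets has more chances of a call, so these shares cannot be compared directly. The count after Cugbp1 siRNA dropped to 29 without Cugbp1 siRNA replicate 2, to 20 without replicate 3 and to 30 without control replicate 3. The count after Mbnl1 siRNA dropped to 40 without Mbnl1 siRNA replicate 1 or 3, to 58 without replicate 2, to 66 without control replicate 2 and to 59 without control replicate 3. Between the siRNAs 0 of 723 passed the limma test (0.0769% of all probe sets), with 67 at an unadjusted p under 0.05, a smallest adjusted p of 0.093 in Sf1, and 2 calls by limma's diffSplice.

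Khdrbs3 held the calls with the smallest adjusted p. Its probe set 4605426 stood at 12.27, 12.69 and 12.23 after Cugbp1 siRNA and 12.35, 12.44 and 12.44 after Mbnl1 siRNA, against 12.80, 12.60 and 12.75 in control, and probe set 4894913 at 9.03, 9.19 and 8.67 after Cugbp1 siRNA and 8.99, 8.93 and 8.81 after Mbnl1 siRNA, against 9.38, 9.31 and 9.33 in control. On both, the controls averaged above the siRNA groups, while 10 of the gene's 12 probe sets had higher means after each siRNA. Relative to the gene, probe set 4605426 changed by -0.91 after Cugbp1 siRNA and -0.88 after Mbnl1 siRNA (limma adjusted p = 4.08e-05 and 2.64e-05). Probe set 4894913 changed by -0.97 after Cugbp1 siRNA and -1.002 after Mbnl1 siRNA (limma adjusted p = 2.63e-04 and 1.07e-04). On their own scale these probe sets changed by -0.32 and -0.31 and by -0.38 and -0.43, against a gene value that rose by 0.59 and 0.57. The rise of Khdrbs3 given above is therefore that of most, not all, of its probe sets.

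Khdrbs1 showed the same form. Its probe set 5569908 stood at 10.63, 10.64 and 10.40 after Cugbp1 siRNA and 10.49, 10.33 and 10.58 after Mbnl1 siRNA, against 11.18, 10.93 and 11.23 in control, and probe set 5011428 at 11.29, 11.14 and 11.09 after Cugbp1 siRNA and 11.20, 10.89 and 11.08 after Mbnl1 siRNA, against 11.55, 11.48 and 11.54 in control. The control arrays were above all siRNA arrays on both, the reverse of the gene value. Relative to the gene, the changes were -0.73 after Cugbp1 siRNA and -0.84 after Mbnl1 siRNA (limma adjusted p = 6.37e-04 and 1.22e-04) for the first and -0.53 after Cugbp1 siRNA and -0.67 after Mbnl1 siRNA (limma adjusted p = 0.00195 and 2.07e-04) for the second. Sf1, whose gene value passed no test, held probe set 4453042 at 11.83, 11.65 and 11.63 after Cugbp1 siRNA and 11.69, 11.64 and 11.63 after Mbnl1 siRNA, against 11.99, 12.15 and 12.10 in control. All siRNA arrays were below control, and the change relative to the gene was -0.48 after Cugbp1 siRNA and -0.47 after Mbnl1 siRNA (limma adjusted p = 4.69e-04 and 2.89e-04).

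**Figure D5:**
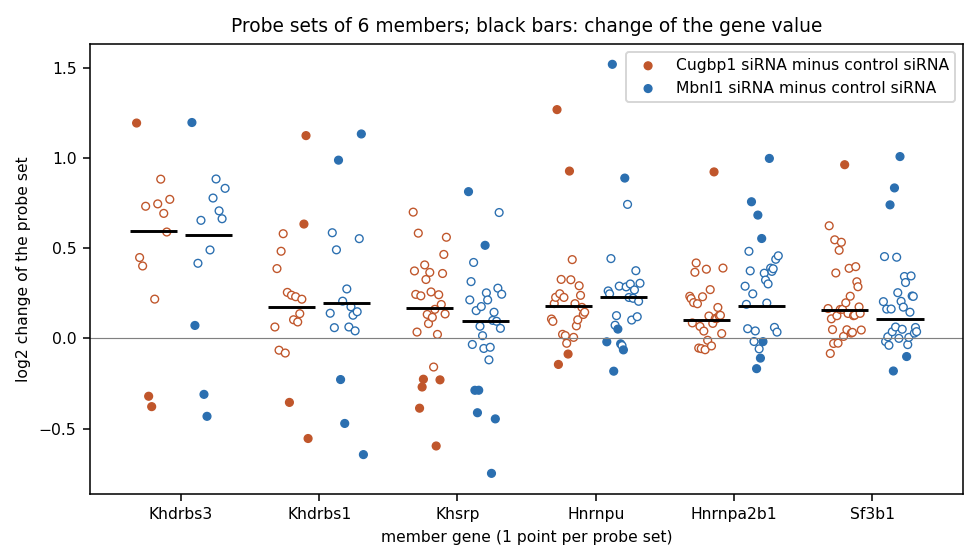
Log2 change of every tested probe set of 6 members after Cugbp1 siRNA (orange) and Mbnl1 siRNA (blue) against control; 1 point is 1 probe set, filled points were called as departing from their gene, and black bars give the change of the gene value. In Khdrbs3 and Khdrbs1 called probe sets lie on both sides of the bar, and in Khsrp most called ones lie below it.

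Other calls lay above their gene. Probe set 4734256 of Hnrnpu stood at 7.44, 7.51 and 7.81 after Cugbp1 siRNA and 7.72, 7.80 and 7.99 after Mbnl1 siRNA, against 6.22, 6.08 and 6.66 in control. The siRNA arrays were above the filter threshold of 7.0 and the control arrays below it, so it was tested only because it was high in the siRNA groups, and its call is not read as a result. Of the called member probe sets above their gene, 5 of 23 after Cugbp1 siRNA and 7 of 55 after Mbnl1 siRNA had a control mean below that threshold (21.7% and 12.7%), beside 16.8% and 15.2% of such calls over all probe sets tested. Probe set 5200003 of Hnrnpa2b1 stood at 8.36, 8.70 and 8.77 after Cugbp1 siRNA and 8.57, 8.60 and 8.89 after Mbnl1 siRNA, against 8.05, 7.43 and 7.59 in control, with all siRNA arrays above control. It changed relative to the gene by 0.82 after Cugbp1 siRNA and 0.82 after Mbnl1 siRNA (limma adjusted p = 0.00333 and 0.00201). Probe set 4734428 of Ddx5 stood at 10.68, 10.67 and 11.05 after Cugbp1 siRNA and 11.18, 10.98 and 11.03 after Mbnl1 siRNA, against 10.24, 10.13 and 10.23 in control, above control on every siRNA array, and changed by 0.35 after Cugbp1 siRNA and 0.67 after Mbnl1 siRNA (limma adjusted p = 0.0246 and 2.71e-04). Hnrnpf, whose gene value hardly moved, held probe set 4644066 at 9.16, 9.26 and 9.19 after Cugbp1 siRNA and 9.21, 9.45 and 9.56 after Mbnl1 siRNA, against 8.64, 8.69 and 8.63 in control. Its siRNA arrays lay above all controls, and it changed relative to the gene by 0.53 after Cugbp1 siRNA and 0.70 after Mbnl1 siRNA (limma adjusted p = 0.00555 and 5.16e-04).

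The remaining probe sets lay below their gene. Probe set 5039755 of Hnrnpa2b1 stood at 12.45, 12.60 and 12.60 after Cugbp1 siRNA and 12.40, 12.47 and 12.44 after Mbnl1 siRNA, against 12.63, 12.58 and 12.61 in control, with the Mbnl1 siRNA arrays below all controls. Relative to the gene it changed by -0.35 after Mbnl1 siRNA (limma adjusted p = 0.00113) and by -0.16 after Cugbp1 siRNA, which did not pass (limma adjusted p = 0.0897). Probe set 5037009 of Ddx5 stood at 12.65, 12.77 and 12.83 after Cugbp1 siRNA and 12.67, 12.66 and 12.67 after Mbnl1 siRNA, against 12.70, 12.84 and 12.77 in control. The Cugbp1 siRNA arrays overlapped the controls and the Mbnl1 siRNA arrays lay just below them. On its own scale it changed by -0.016 and -0.10, while the gene value rose, and relative to the gene by -0.26 after Cugbp1 siRNA and -0.29 after Mbnl1 siRNA (limma adjusted p = 0.0046 and 0.00134). Probe set 4795338 of Hnrnpu stood at 10.67, 10.64 and 10.69 after Cugbp1 siRNA and 10.63, 10.68 and 10.57 after Mbnl1 siRNA, against 10.86, 10.80 and 10.77 in control, below control on every siRNA array, and changed by -0.33 after Cugbp1 siRNA and -0.41 after Mbnl1 siRNA (limma adjusted p = 0.0136 and 0.00216). In Khsrp, 5 of 27 probe sets were called below the gene in each comparison, with 0 above it after Cugbp1 siRNA and 2 above it after Mbnl1 siRNA. The named probe sets above their gene had lower means over all arrays than its median probe set, as 9.09 beside 11.25 in Hnrnpf. Most of those named below had higher means, as 12.51 beside 8.58 for 4605426 of Khdrbs3. Exceptions below their gene included 4795338 of Hnrnpu (10.70 beside 10.93) and 5155204 of Khsrp (9.63 beside 10.14). Whether signal strength has a part in these calls was not tested.

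Genes of the wider splicing machinery were counted in the same way. Of 25 other hnRNPs and related RNA-binding proteins tested, 9 rose and 0 fell after Cugbp1 siRNA, and 10 rose and 1 fell after Mbnl1 siRNA, with medians of 0.086 and 0.10. Of all genes 26% rose and 12.7% fell after Cugbp1 siRNA and 26.9% rose and 14.6% fell after Mbnl1 siRNA, with medians of 0.054 and 0.041. Hnrnpr, which encodes hnRNP R, rose by 0.30 and 0.37, and Rbmx, an hnRNP encoded on the X chromosome, by 0.26 and 0.32. Hnrnpa0 rose by 0.33 and 0.23, while the paraspeckle gene Pspc1 rose by 0.42 after Cugbp1 siRNA and the nuclear matrix gene Matr3 by 0.28 after Mbnl1 siRNA. Under centring on the kept probe sets with 1 symbol, this list had 4 higher and 3 lower after Cugbp1 siRNA and 3 higher and 3 lower after Mbnl1 siRNA, and its median after Cugbp1 siRNA was -0.0025. The median of all genes under that centring was -0.041 after Cugbp1 siRNA and -0.062 after Mbnl1 siRNA, below that of the list in both. Centring leaves this order nearly unchanged by its design.

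Of 70 genes of the spliceosome core tested, 27 rose and 1 fell after Cugbp1 siRNA, with a median of 0.13, and 22 rose and 2 fell after Mbnl1 siRNA, with a median of 0.080. Under the centring just named the counts were 11 and 4 after Cugbp1 siRNA and 11 and 10 after Mbnl1 siRNA, where the median was -0.021. Of all genes 10.8% were higher and 25.4% lower after Cugbp1 siRNA under it, and 13.6% higher and 31% lower after Mbnl1 siRNA. The list's median lay above that of all genes in both, an order that the centring again leaves nearly unchanged. Cdc5l, of the PRP19 complex, rose by 0.47 and 0.49, and the second-step factor Slu7 by 0.41 and 0.51. Lsm6 and Snrnp27 rose by 0.41 and 0.37 after Cugbp1 siRNA, and Prpf39 and the Sm gene Snrpd1 by 0.39 and 0.38 after Mbnl1 siRNA. Of 31 other splicing regulators tested, 17 rose after Cugbp1 siRNA and 14 after Mbnl1 siRNA, and 0 fell in either, with medians of 0.15 in both. Under that centring 12 rose and 0 fell after Cugbp1 siRNA, and 8 rose and 1 fell after Mbnl1 siRNA. Msi2, which encodes an RNA-binding translational regulator, rose by 0.35 and 0.59, the SR protein kinase Clk4 by 0.49 and 0.36, Fmr1 by 0.48 and 0.55 and the U1-associated Luc7l2 by 0.39 and 0.40. The medians of these lists stood above that of all genes, as the members' did, and nothing here sets the members apart from the rest of the splicing machinery.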

How the data were processed

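RNA of 9 samples of C2C12 cells was hybridised to exon arrays, from 100 ng of total RNA each, with groups and replicate numbers taken from the sample titles. The authors deposited linear intensity values of 1195555 probe sets, made with RMA in Affymetrix Expression Console on mm9, per the submitters' processing notes. No versions are stated in the sources used here. The deposited intensities were log2-transformed and otherwise used as given. Probe sets were named from the GEO platform annotation where it gave exactly 1 symbol (316997; 6571 had several and 871987 were not listed), with older symbols updated through RefSeq GRCm38.p6. The 942 member probe sets were matched this way, and Tra2b was matched by hand.

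Probe sets with a mean log2 over the 9 arrays at or above the 75th percentile (7.0, intensity 128) were kept, 298889 in all, 168803 of them with 1 symbol. A gene needed 3 kept probe sets, and its value was their Tukey median polish. A member that was high in 1 group alone could pass this filter through that group. All 3 groups entered 1 fit in limma 3.58.1 (R 4.3.3, data.table version 1.17.8) with eBayes and Benjamini-Hochberg adjustment over 12646 genes. Exon usage was fitted in limma with a mean-variance trend over 158713 probe sets of genes with at least 4 kept. Both steps were tried on simulated data with independent noise for each probe set. Those data held no shift shared by an array, so they do not bear on the scaling. The number of arrays limits the precision. No batch is named in the labels.

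Replicate numbers recur across groups. Correlations of same-numbered deviations ran from -0.10 to 0.12 over 9 pairs, 1 of them over 0.1, so the numbers were not taken to pair the arrays. Low correlations do not exclude pairing.

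All members are accounted for. Values on every array were given for every member called in any comparison, for the 12 member probe sets with the smallest adjusted p for exon usage, and changes for the 4 largest called genes of each other list. The members and lists were chosen with earlier results of these data known. Alternatives were filters, scalings, summaries, variance models, the groups fitted, a replicate block and leaving out each array.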

Additional observations from a re-analysis of the deposited data

Results flagged for a closer look

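The change after Cugbp1 siRNA differed from that after Mbnl1 siRNA for 3 of 39 members, by the limma test of the difference itself over all genes (Benjamini-Hochberg adjusted). Of all genes 9.34% were called in that comparison, so the count is near the background. Ddx17 was lower after Cugbp1 siRNA by a log2 difference of -0.23 (SE 0.044, adjusted p = 0.00991), and all 3 Cugbp1 siRNA arrays were below all 3 Mbnl1 siRNA arrays. Tia1 was higher by 0.20 (SE 0.050, adjusted p = 0.0341) and Rbm38 by 0.22 (SE 0.059, adjusted p = 0.044), with 3 of 3 arrays above all Mbnl1 siRNA arrays in both cases. Such separation of the arrays was common, with 1910 of 12646 genes above and 1821 below. Over the alternatives the adjusted p ran from 0.00273 to 0.0433 for Ddx17, from 0.0178 to 0.209 for Tia1 and from 0.0117 to 0.155 for Rbm38. The cause of these differences was not tested.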

How the results depend on the processing

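The number of arrays and the closeness of many members to the threshold limit these results. No member changed direction under an alternative while called. With the arrays centred on the median of the kept probe sets with 1 symbol, a setting added after the data were seen, 8 members were called after Cugbp1 siRNA and 7 after Mbnl1 siRNA, in place of 19 and 20. Of all genes, 36.2% and 44.6% were then called, in place of 38.7% and 41.5%. Without the filter on weak probe sets, 639 genes differed between the siRNAs in place of 1181. Of the 3 members that differed between the siRNAs, 1 was called without that filter, with the filter at the 50th percentile and with the replicate block. The block gave 18 members higher and 2 lower after Cugbp1 siRNA, beside 23.6% and 12.3% of all genes. After Mbnl1 siRNA it gave 16 higher and 2 lower, beside 25.3% and 14.1% of all genes. Its losses are reported without a reading, because the labels do not say whether the numbers pair the arrays. With diffSplice, 2 member probe sets differed in exon usage between the siRNAs in place of 0. Leaving out each array in turn gave 3444 to 5319 genes and 13 to 24 members called after Cugbp1 siRNA, 3774 to 5759 and 13 to 22 after Mbnl1 siRNA, and 628 to 1157 and 1 to 3 between the siRNAs. Member probe sets called for exon usage then numbered 20 to 58, 40 to 118 and 0 to 1 in the same comparisons. The cause of these changes was not tested, other than that fewer arrays entered the fits.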
